A study of Homo sapiens with 32 samples.

Results

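Activins, bone morphogenetic proteins (BMPs) and transforming growth factor beta (TGF-beta) are secreted signals of one superfamily, and follistatins and gremlin are secreted proteins that bind them. The 9 genes described here were found by gene symbol in the expression table: the activin subunit genes INHBA and INHBB, the activin-binding follistatin genes FST and FSTL3, the ligand genes BMP2, BMP4, BMP6 and TGFB2, and GREM1, which encodes the BMP antagonist gremlin. They were 9 of 47137 gene entries, of which 18583 had values. Of the 9, 8 passed the filter on low counts and were tested, and BMP6 did not pass.

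RNA was measured in HGrC1 cells, an immortalized line of human granulosa cells that have not luteinized, the follicle cells that enclose the oocyte. A set of 4 separately frozen vials was expanded, and each was split into a vehicle control with 0.05% DMSO and cultures with 0.01, 0.1 or 1 µM perfluorooctane sulfonate (PFOS), a persistent surfactant, renewed at every passage. RNA was taken from every culture at 6 and at 12 weeks, which gave 32 libraries in 8 groups of n = 4. All groups shared medium with 10% serum and a steroid at 100 nM, which the sample labels call estradiol and the study's methods call testosterone. The line is 1 immortalized source of cells, so the 4 vials are repeat cultures and not donors.

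Ligands of this family are dimers that bring type II and type I receptors together. The type II receptor phosphorylates the type I receptor, which in turn phosphorylates SMAD proteins that enter the nucleus. Activins are dimers of the subunits that INHBA and INHBB encode, and in the ovary they are made by granulosa cells and favour the response to follicle-stimulating hormone. Follistatin and FSTL3 wrap around activin and keep it from its receptors, gremlin does the same to BMPs, and BMP2, BMP4 and BMP6 signal through another branch of SMADs than activin and TGF-beta.

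Of the 12 granulosa markers examined, 11 had values and FSHR had none. Their summed count was between 3662 and 4425 per library, mostly GATA4 and WT1. GATA4, a transcription factor of gonadal somatic cells, had a median of 74.1 TPM (transcripts scaled by length and library total), and AMH, the hormone of growing follicles, 13.5 TPM. CYP19A1, the aromatase gene, had at most 1 count in a library, and FOXL2 had a median of 0.635 TPM, so these defining granulosa markers were absent or low. AMHR2, NR5A1, INHA, CYP11A1, STAR and HSD17B1 had at most 3, 14, 31, 50, 81 and 86 counts in a library. The summed counts of 5 stroma markers, mostly COL1A1, were 30436 to 49578, and the oocyte genes DDX4 and BMP15 were at 0 in all 32 libraries. Total counts lay between 17907056 and 18553348 per library. The summed counts of 6 hepatocyte markers were 0 to 1 in the control and 0 in the 0.01 µM group after 6 weeks, and 70 to 866 in the libraries of the other 6 groups. The highest of these sums, 866, was in the 12-week control of vial 3.

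The sequences before the start sites of 4 of the genes are shown because FSTL3 and INHBB fell together at 0.1 µM PFOS after 6 weeks, INHBA encodes the other activin subunit, and GREM1 fell with culture time. They were taken from RefSeq (GRCh38.p14) as the 250 bases before an annotated start, 5′ to 3′ on the gene's strand, and 8 of the 9 genes had such a window. BMP2 had none. Capitals mark every match to the motifs searched on both strands, CAGAC and GGCGCC (SMAD-binding motifs), TGANTCA (AP-1) and TGACGTCA (the cAMP response element).
FSTL3, chr19:676142-676391, plus strand: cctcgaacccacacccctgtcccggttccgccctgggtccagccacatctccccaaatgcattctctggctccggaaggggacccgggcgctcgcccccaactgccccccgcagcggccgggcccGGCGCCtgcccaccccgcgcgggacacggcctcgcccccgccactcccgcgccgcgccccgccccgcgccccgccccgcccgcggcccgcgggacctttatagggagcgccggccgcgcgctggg
INHBB, chr2:120345886-120346135, plus strand: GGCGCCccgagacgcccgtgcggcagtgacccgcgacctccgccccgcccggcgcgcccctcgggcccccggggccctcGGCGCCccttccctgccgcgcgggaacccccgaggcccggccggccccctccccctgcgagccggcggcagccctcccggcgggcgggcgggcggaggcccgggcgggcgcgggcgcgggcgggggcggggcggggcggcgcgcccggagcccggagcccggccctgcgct
INHBA, chr7:41703091-41703340, minus strand: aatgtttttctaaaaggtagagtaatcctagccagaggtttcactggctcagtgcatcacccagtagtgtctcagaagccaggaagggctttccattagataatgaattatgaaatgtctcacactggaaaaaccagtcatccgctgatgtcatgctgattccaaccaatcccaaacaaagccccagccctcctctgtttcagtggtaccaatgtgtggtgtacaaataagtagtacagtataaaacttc
GREM1, chr15:32717754-32718003, plus strand: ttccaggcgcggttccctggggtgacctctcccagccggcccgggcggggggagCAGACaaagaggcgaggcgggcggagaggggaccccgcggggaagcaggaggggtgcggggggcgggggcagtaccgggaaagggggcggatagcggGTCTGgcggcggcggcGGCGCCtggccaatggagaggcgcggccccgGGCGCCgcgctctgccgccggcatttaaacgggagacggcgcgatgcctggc
The FSTL3 window held 1 GGCGCC, the INHBB window 2 and the INHBA window no match to any of the 4 motifs. The GREM1 window shown held 2 GGCGCC and 2 CAGAC, the latter once as written and once on the other strand. Another GREM1 window, chr15:32718234-32718483, is not shown and held 1 CAGAC and no GGCGCC. Of the other genes not shown, TGFB2, which was called in no comparison, held 2 CAGAC, FST 1 TGANTCA and BMP6 no match. Of the BMP4 windows, window 1 held 1 CAGAC and 1 GGCGCC, window 2 no match and window 3 held 1 CAGAC. Among 35116 windows of the same length over all genes, 16.4% held GGCGCC, 38.0% CAGAC, 6.57% TGANTCA and 1.65% TGACGTCA. GC content was 80.0% for FSTL3, 89.6% for INHBB, 76.8% for the GREM1 window shown and 42.8% for INHBA, against a median of 58.0% over all windows. The motif shares were not taken over windows of like GC content, so they are no matched background for these windows. The INHBA window lies before a start inside the annotated span of the gene, chr7:41685114-41705406. Letters that match a motif describe the sequence only and do not show that a protein binds there.

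Levels were compared between genes in TPM, which is scaled by transcript length. FSTL3 (chr19:676392-683385) was the most abundant of the 9, with a median of 259.5 TPM over the 32 libraries and a range of 189.5 to 375.5. TGFB2 followed with a median of 88.6 TPM (53.1 to 114.0), BMP4 with 42.3 TPM (25.0 to 58.7), FST with 17.9 TPM (12.0 to 23.4) and GREM1 with 15.0 TPM (7.49 to 25.0). The activin subunits were lower, INHBA with a median of 3.95 TPM (1.67 to 6.06) and INHBB with 3.21 TPM (1.49 to 4.43), and BMP2 had 1.09 TPM (0.40 to 2.56). The transcripts of the binding proteins thus outnumbered those of the activin subunits: per library, FSTL3 exceeded INHBA by a median of 73.7-fold in TPM (47.8 to 113.5) and FST exceeded INHBA by 4.65-fold (2.32 to 8.92).

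BMP6 (chr6:7726099-7881728), a BMP that oocytes are known to make, had 0 counts in 21 of 32 libraries and at most 2 in the others. A count of 0 allows up to 3 counts, so no difference in BMP6 was detectable at this depth. In the order of levels most neighbours were apart in every library, but FST was above GREM1 in 27 of 32 libraries, and their groups did not overlap in only 3 of 8. INHBA was above INHBB in 21 of 32 libraries, without overlap in 2 of 8 groups. Within each library after 6 weeks, the ratio of INHBA to INHBB was 1.17 to 1.78 in the controls. It was 0.915 to 1.79 at 0.01 µM, 1.40 to 1.94 at 0.1 µM and 1.24 to 1.76 at 1 µM. After 12 weeks the group medians of this ratio were 0.819 to 1.10, and every group held libraries on both sides of 1. The change of this order between the times was not tested. INHBB was above BMP2 in all 32 libraries, without overlap in 7 of 8 groups.

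**Figure D1:**
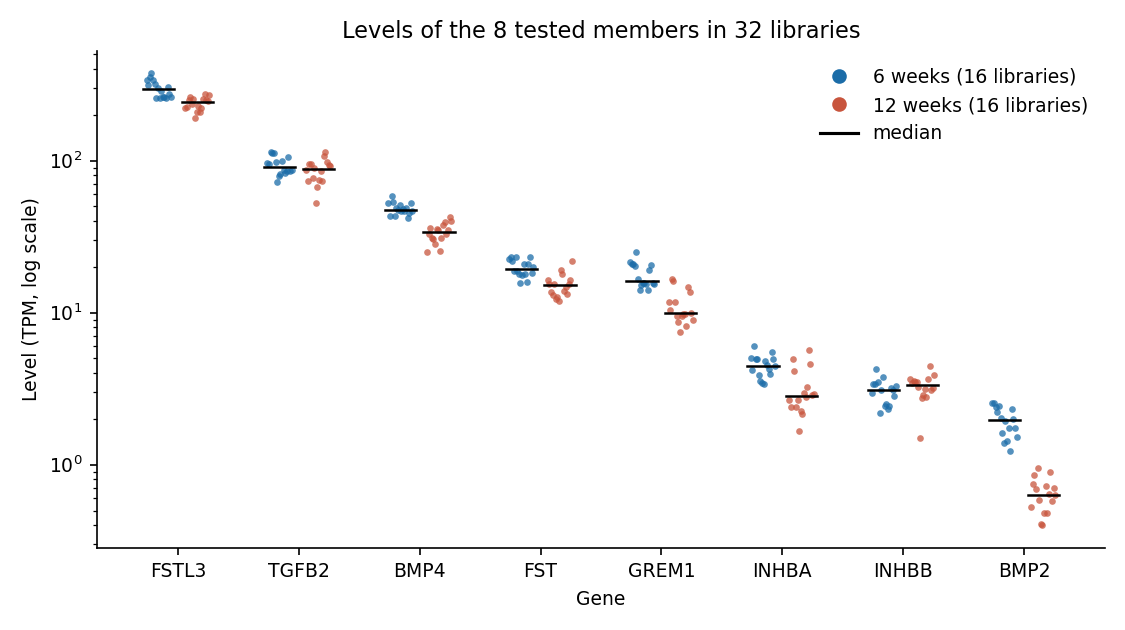
Level of the 8 tested genes in TPM (log axis), 1 point per library, with 16 libraries after 6 weeks in blue and 16 after 12 weeks in red and the median of each as a line. FSTL3 lies at the top with a median of 259.5 TPM over all libraries and BMP2 at the bottom with 1.09 TPM, and the 12-week points of BMP2 all lie below its 6-week points.

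The first comparison asked whether PFOS changed these genes against the control of the same time. After 6 weeks at 0.1 µM, 3 of the 8 tested genes fell, FSTL3, INHBB and BMP2, and none rose. These are an activin-binding protein, an activin subunit and a BMP ligand. A gene was called at an adjusted p at or under 0.05 (edgeR quasi-likelihood test, Benjamini-Hochberg over all genes tested), and was a differentially expressed gene (DEG) if it also changed at least 2-fold. None of the 3 was a DEG. Over all 12836 genes tested in this comparison, 4.24% were called, 2.69% were called lower and 0.0234% were lower DEGs. The estimates of all 8 lay below 0, with a median log2 fold change of −0.29 against 0.00 over all genes.

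The values below are CPM, counts relative to the library total after scaling by the trimmed mean of M-values (TMM), listed for vials 1 to 4. FSTL3, the most abundant of the activin-binding genes, had 486.9, 457.3, 517.1 and 535.6 CPM in the 6-week controls. At 0.1 µM it had 377.9, 415.5, 384.5 and 391.5 CPM. Every exposed library was below every control. The log2 fold change was −0.35 (SE 0.07, adjusted p = 0.0206 by edgeR), so that it fell by 21.6%. The SE is the size of the log2 fold change divided by the square root of the F statistic. In bulk RNA, fewer cells of a type and less RNA per cell cannot be told apart.

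INHBB (chr2:120346136-120351803), the beta B subunit of activin and inhibin, had 5.63, 6.53, 6.50 and 8.004 CPM in the 6-week controls, from 103 to 145 counts. At 0.1 µM it had 4.71, 4.75, 4.47 and 4.80 CPM. The exposed libraries lay close together and below all controls, and the log2 fold change was −0.51 (SE 0.13, adjusted p = 0.0305 by edgeR), so that it fell by 29.9%. BMP2 (chr20:6767686-6780246), a BMP ligand, had 5.41, 5.39, 5.12 and 4.64 CPM in the controls. At 0.1 µM it had 4.16, 3.04, 3.74 and 2.74 CPM. The groups did not overlap and the log2 fold change was −0.59 (SE 0.16, adjusted p = 0.0336 by edgeR), so that it fell by 33.5%.

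These 3 calls did not hold with every vial left out in turn. With 1 vial left out of every group, FSTL3 was not called without vial 1, 3 or 4 (adjusted p = 0.0594, 0.109 and 0.192 by edgeR), nor INHBB (0.0591, 0.186 and 0.172), and BMP2 was not called without vial 2, 3 or 4 (0.13, 0.167 and 0.115). With all 32 libraries in one fit, INHBB (adjusted p = 0.127) and BMP2 (0.0965) were not called either. The log2 fold changes over these alternatives ran from −0.42 to −0.31 for FSTL3, −0.59 to −0.42 for INHBB and −0.67 to −0.51 for BMP2. Over all genes the number called, 544 with all vials, was 128, 570, 22 and 77 without vial 1, 2, 3 and 4, and 49 with all 32 libraries in one fit.

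GREM1 (chr15:32718004-32745106) had 57.4, 54.7, 55.0 and 53.0 CPM in the 6-week controls. At 0.1 µM it had 42.7, 41.4, 41.5 and 38.6 CPM. The groups did not overlap, and its log2 fold change was −0.43 (SE 0.15), but the adjusted p was 0.134 by edgeR. With only the 8 libraries of these 2 groups in the fit, the adjusted p was 2.29e-05. The spread of GREM1 in the other groups of that time was wider, with 38.3 to 66.3 CPM at 0.01 µM and 42.7 to 56.9 CPM at 1 µM. GREM1 and the 3 called genes made 4 of 8 whose groups did not overlap, all of them lower, and over all genes tested 6.31% were lower without overlap.

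**Figure D2:**
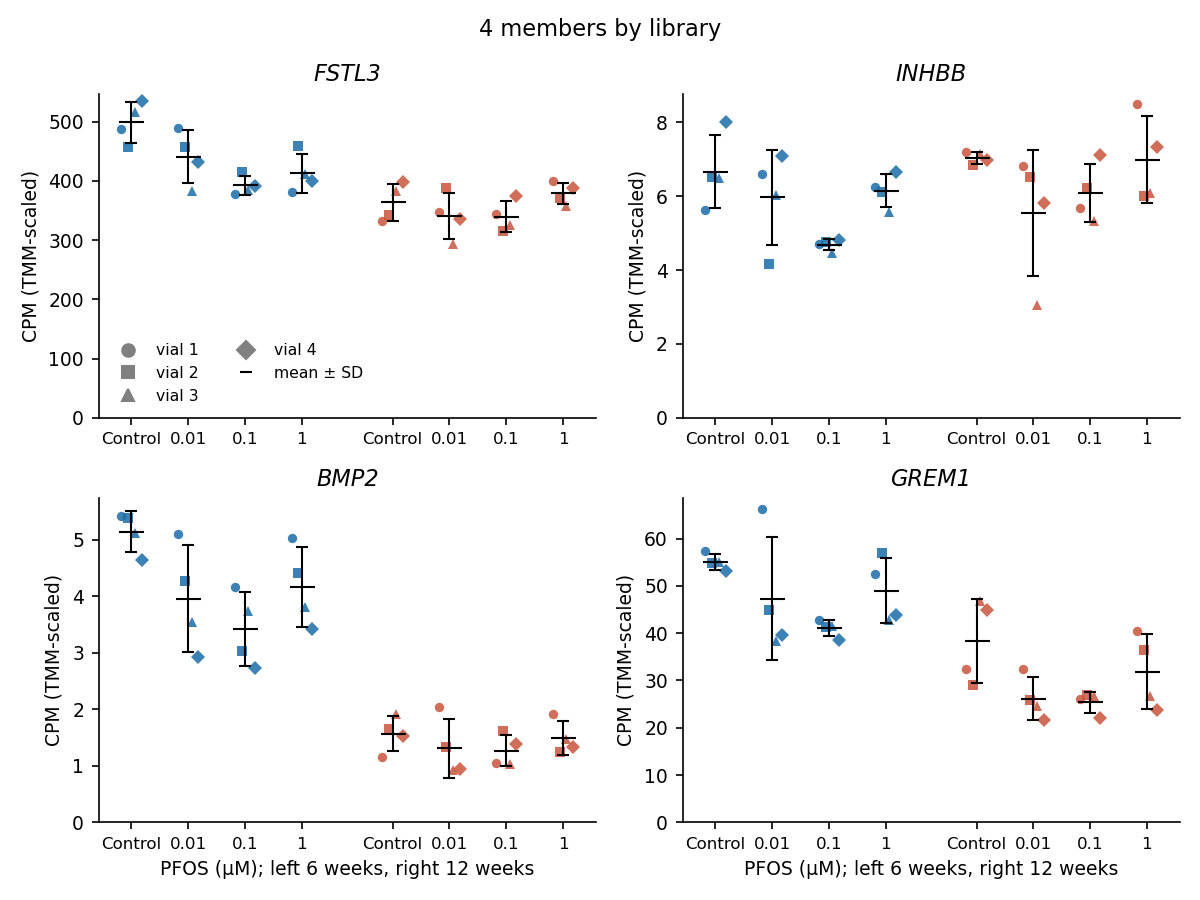
TMM-scaled CPM of FSTL3, INHBB, BMP2 and GREM1 in each library, by PFOS dose (µM), with 6 weeks at the left in blue and 12 weeks at the right in red, marker shapes for the 4 vials, and bars for mean ± SD (n = 4). After 6 weeks the 4 libraries at 0.1 µM lie below all 4 controls for each of these genes, and BMP2 is lower in all 12-week groups.

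The remaining 4 genes did not pass the test at this dose. INHBA, which encodes the beta A subunit, had 18.8, 15.9, 22.7 and 18.4 CPM in the 6-week controls. At 0.1 µM it had 12.93, 18.01, 17.04 and 16.53 CPM. The groups overlapped, and the log2 fold change was −0.24 (SE 0.14, adjusted p = 0.363 by edgeR). TGFB2, a TGF-beta isoform, had a log2 fold change of −0.23 (SE 0.13), FST, the secreted follistatin, −0.14 (SE 0.10), and BMP4 −0.12 (SE 0.08), with adjusted p between 0.331 and 0.45.

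The other doses after 6 weeks used the same control libraries. At 0.01 µM no tested member was called by edgeR (adjusted p 0.462 to 0.823) or DESeq2, and 0% of all genes were called. Of the 8, 3 had an unadjusted p under 0.05, as did 1232 of all 12836 genes. All 8 estimates lay below 0, from −0.38 for BMP2 to −0.09 for FST, with a median of −0.19. At 1 µM edgeR called none (adjusted p 0.134 to 0.922), and 0.28% of all genes were called. Of the 8, 1 had an unadjusted p under 0.05, as did 1757 of all 12836 genes. That member was FSTL3, with 381.4, 458.5, 410.9 and 400.1 CPM, of which 1 value lay above the lowest control. Its log2 fold change was −0.28 (SE 0.07, adjusted p = 0.134 by edgeR), whereas DESeq2 called it (adjusted p = 0.00643), and so did edgeR without vial 2 (adjusted p = 0.0223). INHBB had 6.26, 6.13, 5.57 and 6.66 CPM at 1 µM, of which 3 lay within the range of the controls and 1 just below it, and BMP2 had 5.04, 4.41, 3.81 and 3.41 CPM.

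The highest and the middle dose were compared directly. At 1 against 0.1 µM after 6 weeks edgeR and DESeq2 called none of the 8 (edgeR adjusted p 0.6 to 0.981), and 0.0857% of all genes were called. Of the 8, 2 had an unadjusted p under 0.05, as did 802 of all 12836 genes. INHBB was higher at 1 µM in all 4 vials without overlap, with a log2 difference of 0.39 (SE 0.13, adjusted p = 0.6 by edgeR), and over all genes 2.1% were higher without overlap. After 12 weeks none was called by either tool (edgeR adjusted p 0.643 to 0.966), and 0% of all genes were called. An unadjusted p under 0.05 was found for 0 of the 8 and for 984 of all 12742 genes. The largest estimate was that of INHBA, at 0.51 (SE 0.27).

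After 12 weeks no PFOS dose was associated with a called change in these genes. At 0.01 µM edgeR gave adjusted p of 0.565 to 0.912 with 2 genes at an unadjusted p under 0.05 and 0% of all genes called. At 0.1 µM the adjusted p were 0.183 to 0.877 with 1 such gene and 1.07% of all genes called, and at 1 µM 0.666 to 0.982 with 0 such genes and 0.22% called. Over all 12742 genes tested, 1080, 1956 and 1115 had an unadjusted p under 0.05 at 0.01, 0.1 and 1 µM. DESeq2 called none of the 8 at any of the 3 doses. GREM1 had 32.4, 29.0, 46.7 and 44.9 CPM in the 12-week controls. At 0.1 µM it had 26.0, 26.9, 26.6 and 22.1 CPM. The groups did not overlap, and the log2 fold change was −0.60 (SE 0.19, adjusted p = 0.183 by edgeR). It was 1 of 8 without overlap at this dose, where 3.86% of all genes were lower without overlap.

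INHBB had 7.20, 6.85, 7.15 and 6.99 CPM in the 12-week controls. At 0.01 µM it had 6.81, 6.52, 3.05 and 5.81 CPM. All 4 lay below the controls, with vial 3 the lowest, and the log2 fold change was −0.35 (SE 0.17, adjusted p = 0.596 by edgeR). It was 1 of 8 without overlap at this dose, against 1.42% of all genes lower without overlap. INHBA varied widely between vials after 12 weeks, with 10.4, 9.38, 19.8 and 16.3 CPM in the controls. At 1 µM it had 21.58, 17.65, 10.81 and 10.99 CPM, and its log2 fold change was 0.12 (SE 0.27, adjusted p = 0.914 by edgeR). FSTL3 had 333 to 398 CPM in the 12-week controls and 316 to 375 CPM at 0.1 µM, which differed by −0.10 on the log2 scale (SE 0.08, adjusted p = 0.54 by edgeR).

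**Figure D3:**
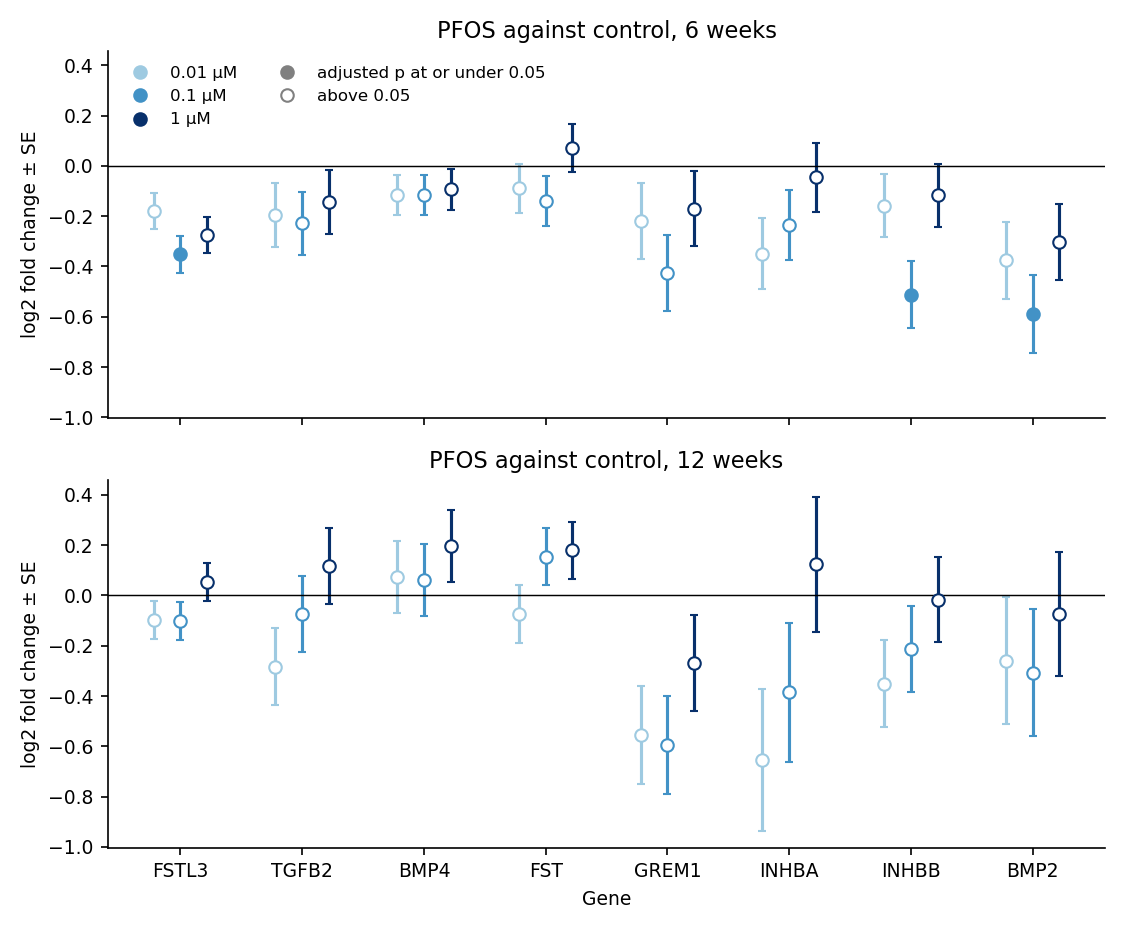
log2 fold change ± SE of PFOS against the control of the same time for the 8 tested genes, after 6 weeks above and 12 weeks below, in 3 shades of blue for 0.01, 0.1 and 1 µM, filled where the adjusted p was at or under 0.05. The filled points are FSTL3, INHBB and BMP2 at 0.1 µM after 6 weeks, at −0.35, −0.51 and −0.59.

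Whether the PFOS effect differed between 6 and 12 weeks was tested as an interaction over all 32 libraries. No tested member was called by edgeR or DESeq2 at any dose. The number with an unadjusted p under 0.05 was 0, 1 and 1 at 0.01, 0.1 and 1 µM, against 972, 1879 and 1571 of all 12988 genes. Of all genes, 0%, 0.208% and 0.123% were called. For FSTL3 the effect at 0.1 µM was 0.25 higher on the log2 scale after 12 weeks (SE 0.11, adjusted p = 0.273 by edgeR) and at 1 µM 0.33 higher (SE 0.11, adjusted p = 0.213). For INHBB at 0.1 µM the difference was 0.30 (SE 0.23, adjusted p = 0.576) and for BMP2 0.28 (SE 0.30, adjusted p = 0.706). The calls after 6 weeks and their absence after 12 weeks were therefore not shown to differ.

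Markers of other cell types were also counted after 6 weeks. After 6 weeks at 0.1 µM the summed counts of the 6 hepatocyte markers were 86 to 133, against 0 to 1 in the controls with 5 of the 6 at 0. At 1 µM they were 86 to 113. The summed counts of 4 epithelial markers, nearly all KRT8 and KRT18, were 86394 to 94917 at 0.1 µM and 98544 to 101760 in the controls. Their part in the results for FSTL3, INHBB and BMP2 was not tested.

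The other genes of the pathway were counted in lists, to be read against the 4.24% of all genes called at this dose and time, with 2.69% lower. After 6 weeks at 0.1 µM, 1 of 13 tested receptors and co-receptors rose, ACVR2B, an activin type II receptor (log2 fold change 0.42, SE 0.12, adjusted p = 0.0473 by edgeR). Of 8 SMADs 1 fell, the inhibitory SMAD7 (−0.26, SE 0.06, adjusted p = 0.0173). Each of these counts is a single gene. Of 8 genes known to respond to SMADs 2 fell, ID2 (−0.40, SE 0.08, adjusted p = 0.0229) and ID3 (−0.18, SE 0.04, adjusted p = 0.0177), both targets of BMP signals. The median log2 fold change of these 8 was −0.15, against 0.00 over all genes. DESeq2 called 0 of the receptors, 1 SMAD and 2 response genes.

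Neither the other ligands nor the other antagonists held a called gene at this dose and time. Of 10 other ligands 1 had an unadjusted p under 0.05, and of 10 other antagonists and binders 2 had, against 2665 of all 12836 genes. DESeq2 called 0 of each list. At 1 µM after 6 weeks SMAD7 (−0.30, SE 0.06, adjusted p = 0.023 by edgeR) and ID3 (−0.20, SE 0.04, adjusted p = 0.0241) fell and no other gene of the 5 lists was called by edgeR, while DESeq2 called 3 response genes and 1 SMAD. At 0.01 µM after 6 weeks edgeR and DESeq2 called none of these lists, with 0 to 3 genes per list at an unadjusted p under 0.05. After 12 weeks edgeR called none of these lists at any dose, with 0 to 4 genes per list at an unadjusted p under 0.05. DESeq2 called 1 gene at that time, among the other ligands at 0.1 µM. These counts at an unadjusted p are to be read against those of all genes given above for each dose and time. The most abundant of each list were RGMB (median 18.1 TPM), TGFB1 (57.6), FSTL1 (867.9), SMAD3 (30.9) and ID3 (440.2).

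The second comparison was between 12 and 6 weeks within each group. Time in culture, the number of passages and any difference in harvest or sequencing between the times cannot be told apart here. In the controls 5 of the 8 tested genes fell, BMP2, BMP4, GREM1, FSTL3 and FST, and none rose. At 0.01 µM 6 fell, at 0.1 µM 5 and at 1 µM 4. Over all 12988 genes tested, 36.6% were called in the controls, 42.7% at 0.01 µM, 40.3% at 0.1 µM and 30.1% at 1 µM. Those called lower were 19.3%, 21.3%, 20.6% and 15.9%. The median log2 fold change of the 8 was −0.45 in the controls against 0.00 over all genes, and −0.44, −0.34 and −0.30 at the 3 doses.

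BMP2 fell most, and it was the only DEG among the 8 in each of the 4 groups. In the controls it had 1.16, 1.66, 1.91 and 1.53 CPM after 12 weeks against 4.64 to 5.41 CPM after 6 weeks. The 12-week libraries held only 17 to 37 counts of BMP2 each over all 4 groups. Its level was 3.27-fold lower in the controls (log2 fold change −1.71, SE 0.20, adjusted p = 2.09e-08 by edgeR). At 0.01 µM it was 3.01-fold lower (−1.59, SE 0.21, adjusted p = 2.14e-07), at 0.1 µM 2.69-fold lower (−1.43, SE 0.22, adjusted p = 2.33e-06) and at 1 µM 2.78-fold lower (−1.48, SE 0.20, adjusted p = 8.79e-07). It fell in all 4 vials of each group, and the 2 times did not overlap in any group. Of all genes, 2.69% were DEGs lower in the controls, 3.01% at 0.01 µM, 3.42% at 0.1 µM and 2.73% at 1 µM.

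BMP4 (chr14:53949736-53956891), a BMP ligand, fell in all 4 groups. It had 54.4, 45.5, 61.3 and 55.1 CPM in the 6-week controls. After 12 weeks it had 27.2, 36.0, 39.8 and 34.0 CPM. The times did not overlap, and the log2 fold change was −0.66 (SE 0.12, adjusted p = 0.00013 by edgeR). At 0.01, 0.1 and 1 µM it was −0.47, −0.48 and −0.36, with adjusted p of 0.00309, 0.00253 and 0.0233 and no overlap. At 1 µM the call was lost without vial 2, 3 or 4 (adjusted p 0.0582 to 0.0925).

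GREM1 also fell in all 4 groups, from 53.0 to 57.4 CPM in the 6-week controls to 29.0 to 46.7 CPM, a log2 fold change of −0.52 (SE 0.17, adjusted p = 0.0189 by edgeR). At 0.01 µM the log2 fold change was −0.85 (adjusted p = 0.000464), at 0.1 µM −0.69 (0.00382) and at 1 µM −0.62 (0.00936). Leaving out vial 1 (adjusted p = 0.056) or 2 (0.169) ended the call in the controls, and leaving out vial 2, 3 or 4 ended the one at 1 µM (0.0556 to 0.057). The 2 times did not overlap for GREM1 in any group.

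Both follistatin genes fell in the controls. FSTL3 had 332.6, 341.8, 383.3 and 397.7 CPM after 12 weeks, all below the 6-week controls, and fell by 27.1% (log2 fold change −0.46, SE 0.08, adjusted p = 2.37e-05 by edgeR). At 0.01 µM it fell by 22.6% (adjusted p = 0.000248), and at 0.1 µM it fell by 13.4% (adjusted p = 0.0303), a call lost without vial 1 (0.0547), 2 (0.151) or 3 (0.061). At 1 µM its log2 fold change was −0.12 (SE 0.08, adjusted p = 0.234). FST (chr5:53480629-53487134) had 25.4, 27.2, 24.6 and 21.5 CPM in the 6-week controls. After 12 weeks it had 20.3, 17.6, 17.9 and 17.2 CPM. The times did not overlap, and it fell by 26.1% (adjusted p = 0.0032 by edgeR). It also fell by 25.1% at 0.01 µM (adjusted p = 0.00418, lost without vial 3 at 0.0555) and fell by 20.1% at 1 µM (adjusted p = 0.0269, lost without vial 1, 2 or 3 at 0.0891 to 0.162). At 0.1 µM FST was not called (log2 fold change −0.14, SE 0.11, adjusted p = 0.327).

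Of the activin subunits, INHBA was called in 2 of the 4 groups and INHBB in none, and the difference between the subunits was not tested. INHBA fell at 0.01 µM, where it had 18.4, 14.7, 13.7 and 12.8 CPM after 6 weeks. After 12 weeks it had 9.13, 10.5, 6.70 and 9.38 CPM there. The times did not overlap, and it fell by 40.1% (log2 fold change −0.74, SE 0.24, adjusted p = 0.0135 by edgeR). At 0.1 µM INHBA fell by 33.6% (adjusted p = 0.0414), a call lost without any 1 of the 4 vials (0.0622 to 0.123), without the filter on low counts (0.0567) and with the vial as replicate block (0.0583). In the controls its log2 fold change was −0.44 (SE 0.22, adjusted p = 0.115 by edgeR), and without the 12-week control of vial 3 it was −0.66 (adjusted p = 0.0243). That library had the most liver transcripts, but also the highest INHBA of these 12-week controls, at 19.8 CPM. Leaving it out had to deepen the fall, and the part of the liver transcripts was not tested. At 1 µM the log2 fold change of INHBA was −0.27 (SE 0.21, adjusted p = 0.374 by edgeR).

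INHBB had log2 fold changes of 0.08 in the controls (adjusted p = 0.717 by edgeR), −0.11 at 0.01 µM (0.626), 0.38 at 0.1 µM (0.0683) and 0.18 at 1 µM (0.403). At 0.1 µM its 12-week values of 5.67, 6.22, 5.34 and 7.12 CPM were all above the 6-week values, and it was called higher with the replicate block (adjusted p = 0.0447) and with only those 8 libraries in the fit (0.0146). TGFB2 (chr1:218345336-218444619) was called in none of the groups either, with log2 fold changes from −0.26 to 0.08 and adjusted p from 0.146 to 0.901 by edgeR.

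Counted over the 8 tested genes, 5 did not overlap between the times in the controls, 4 at 0.01 µM, 6 at 0.1 µM and 3 at 1 µM. Over all genes, 16.6%, 17.4%, 20.1% and 16.1% were lower without overlap, and 14.8%, 15.8%, 19.5% and 14.3% higher. INHBB at 0.1 µM was the one member among these that was higher.

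**Figure D4:**
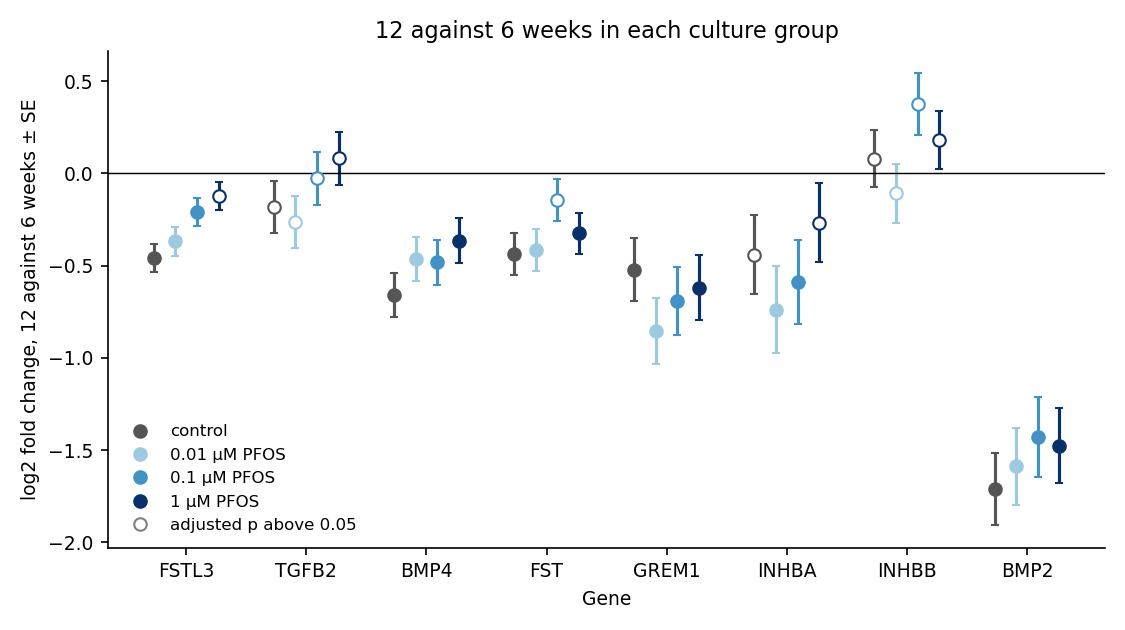
log2 fold change ± SE of 12 against 6 weeks for the 8 tested genes, with control in grey and 0.01, 0.1 and 1 µM PFOS in shades of blue, open where the adjusted p was above 0.05. BMP2 lies lowest, between −1.71 and −1.43, BMP4 and GREM1 are filled in all 4 groups, and INHBB and TGFB2 are open in all 4.

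Between the times the summed hepatocyte counts rose from 0 to 1 in the 6-week controls to 79 to 866 after 12 weeks, and from 0 to a range of 70 to 120 at 0.01 µM. At 0.1 µM they were 86 to 133 after 6 weeks and 88 to 148 after 12 weeks. The summed counts of 3 endothelial markers were 33 to 45 in the 6-week controls and 15 to 22 after 12 weeks, where PECAM1 was the 1 of 3 that was called (log2 fold change −2.65, adjusted p = 3.79e-06 by edgeR). In the controls 2 of 5 stroma markers fell and 1 rose, 2 of 8 tested granulosa markers fell and 1 rose, and 1 of 4 epithelial markers fell. Over all genes 36.6% were called in the controls, 19.3% lower and 17.3% higher. PECAM1, the stroma markers PDGFRA (−1.87 in the controls) and COL1A2 (−2.84), the granulosa marker CYP11A1 (−2.03) and the epithelial marker CDH1 (−0.93) fell in all 4 groups. All of these had low counts, at most 61 in any library. Of the abundant markers in the controls, COL1A1 (log2 fold change 0.03), KRT8 (0.02) and KRT18 (−0.09) were not called. LUM (0.36) and WT1 (0.33) rose there, and GATA4 (−0.19) fell. The part of these markers in the falls with time was not tested.

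The other genes of the pathway were counted over time in the same lists, with 36.6% of all genes called in the controls, 19.3% lower and 17.3% higher. In the controls, 7 of 13 receptors and co-receptors fell and 1 rose. Those of lowest p were ENG, a co-receptor for TGF-beta (log2 fold change −1.71, adjusted p = 6.29e-08 by edgeR), the TGF-beta receptors TGFBR1 (−0.69, 5.55e-07), TGFBR2 (−0.39, 1.31e-05) and TGFBR3 (−1.19, 0.000206), and the activin receptors ACVR1B (−0.29, 0.000171) and ACVR2B (0.61, 0.000389). Of 8 SMAD response genes 6 fell, led by TGFBI, an extracellular matrix protein induced by TGF-beta (−1.24, adjusted p = 1.47e-11) and PMEPA1 (−0.48, 4.41e-06). ID3 (−0.38, 0.00098), ID1 (−0.46, 0.00339), ID2 (−0.34, 0.0111) and SMURF1 (−0.17, 0.0168) fell too. Of 8 SMADs the 2 inhibitory ones fell, SMAD6 (−0.21, 0.00586) and SMAD7 (−0.27, 0.00582), a share of SMADs below that of all genes called.

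Of 11 other antagonists and binders 5 fell and 1 rose in the controls. These were BAMBI, a pseudoreceptor (−0.44, adjusted p = 4.29e-09 by edgeR), NOG, which encodes the BMP antagonist noggin (−1.38, 0.00502), and the latent TGF-beta binding proteins LTBP2 (−0.66, 9.94e-09), LTBP3 (−0.47, 9.04e-05), LTBP4 (0.35, 0.000171) and LTBP1 (−0.67, 0.000834). Of 11 other ligands 2 fell, GDF11 (−0.51, 0.000147) and GDF6 (−1.14, 0.000501), and BMP8B rose (1.13, 1.65e-07), so the share of ligands called was below that of all genes. ENG, TGFBR1, TGFBR2, ACVR1B, TGFBI, PMEPA1, BAMBI, LTBP2, LTBP3, GDF11 and SMAD7 also fell in each of the 3 PFOS groups. ACVR2B, LTBP4 and BMP8B also rose in each of them. At 0.01, 0.1 and 1 µM, 6, 7 and 7 of 13 receptors fell and 2, 1 and 1 rose, and 4, 2 and 3 of 8 response genes fell.

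INHBA was set against FST as a ratio within each library, since follistatin binds the activin that INHBA encodes. The mean log2 ratio of their TPM was −2.10 ± 0.28 (SD, n = 4) in the 6-week controls and −2.11 ± 0.64 in the 12-week controls. The other groups had means between −2.57 and −2.08. None of 10 comparisons passed an exact two-sided permutation test (p = 0.0857 to 1.0, adjusted p = 0.571 to 1.0), whose smallest possible p is 0.0286. With 10 comparisons adjusted together, 1 comparison at that smallest p could not have passed, so the adjusted test says little. The largest difference was at 0.1 µM between 12 and 6 weeks, at −0.47 (exact p = 0.0857). After 12 weeks the ratio spread widely over vials, with SDs of 0.64 in the controls and 0.75 at 1 µM.

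**Figure D5:**
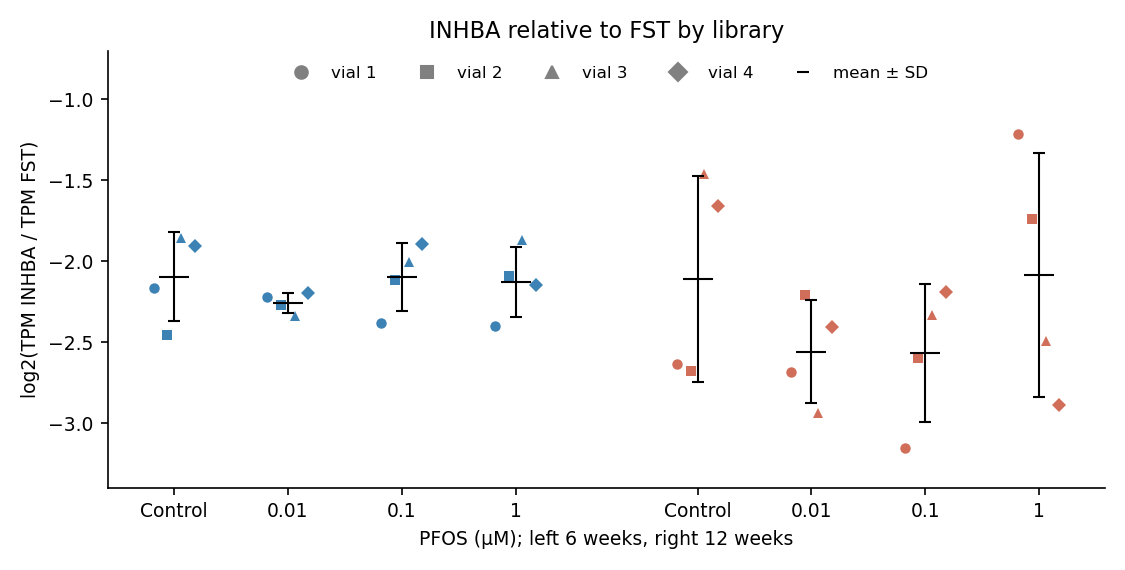
log2 ratio of the TPM of INHBA to that of FST in each library, by PFOS dose (µM), with 6 weeks at the left and 12 weeks at the right, marker shapes for the 4 vials and bars for mean ± SD (n = 4). The group means lie between −2.57 and −2.08 and every library lies below 0, so FST exceeded INHBA in all 32.

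For the 3 genes called with PFOS, the genes of the most alike pattern were named from the Pearson correlation of log2(CPM + 1) over all 32 libraries, among 12987 other genes. BMP2 was most like DACT1 (r = 0.976), VIPR1 (0.967) and PRNP (0.964). FSTL3 was most like MCAM (0.921), PEA15 (0.914) and CTPS1 (0.912), and INHBB most like MAMLD1 (0.756), ADAMTSL1 (0.722) and MTMR1 (0.72). Among the members, BMP2 and GREM1 were the most alike pair (0.875), and INHBB and FST had an r of −0.003. The libraries share the 2 times and the 4 vials, so these values describe the pattern over groups and are not tests.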

How the data were processed

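Stranded poly(A) RNA libraries of 32 HGrC1 cultures were sequenced on a DNBSEQ platform. The submitters' processing notes name HISAT2 2.0.4, Bowtie2 2.2.5, RSEM 1.2.8 and GRCh38.p14. The authors deposited expected counts per gene from RSEM, not normalized, and TPM values, both with 0 unmapped sample columns. The deposited FPKM and normalized counts were not used. Groups and vial numbers came from the labels.

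Expected counts were rounded and tested with edgeR 4.0.16 (R 4.3.3, limma 3.58.1): filterByExpr, TMM, robust quasi-likelihood fits without block, two-sided tests, Benjamini-Hochberg over all genes. PFOS comparisons used the 16 libraries of a time; time comparisons and interactions used all 32. DESeq2 1.42.0, DESeq2 size factors, no filter, other library sets, a replicate block and leaving out each vial were alternatives. Ratios, correlations and markers used Python 3.11.15, numpy 2.4.6, pandas 2.3.3 and scipy 1.17.1. On simulated counts of 12799 genes for 0.1 µM PFOS after 6 weeks, the fit recovered 197 of 200 genes changed 2-fold, with 7 false calls. The changed genes were drawn above a cut-off on mean counts, and no vial effect was simulated. The member changes called with PFOS were smaller than 2-fold, so this recovery does not give the power for them. All libraries differed: of 496 pairs 0 held identical values. Depth was 17907056 to 18553348 counts; the limit given by a count of 0 covers counting error only.

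Members and lists were chosen with earlier results of these data known. Named were all members, the called genes of the pathway lists (at most 6 of lowest p per list and comparison), the most abundant gene of each list, and the 3 genes most alike to each member called with PFOS. The labels state that each thawed vial was divided into the 4 groups, so vial numbers pair the libraries. The mean correlation of same-vial deviations lay between −0.16 and 0.15 over pairs of groups; it was lowest between the control and 1 µM after 12 weeks, where all 4 vials were negative. GREM1 coordinates are those of RefSeq on chromosome 15, since its entry in the deposited table starts on a patch contig. Sequence windows came from RefSeq. Some genes of the pathway are not reported here.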

Additional observations from a re-analysis of the deposited data

How the results depend on the processing

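Results of single members were recomputed under the alternatives, and only results called under at least 1 setting were counted. Of these recomputed values, 216 kept their direction and their side of the threshold, and 32 kept their direction and lost the call. Another 6 kept their direction and gained a call, and 0 reversed. Estimates that no setting called, many of them near 0, were left out, so this count had little room for reversals. The number called at 0.1 µM after 6 weeks was 3, and 1 with all 32 libraries in one fit and 0 to 2 with 1 vial left out. At 1 µM after 6 weeks it was 0, and 1 by DESeq2 and 0 to 1 with 1 vial left out. Between 12 and 6 weeks it was 5 at 0.1 µM and 4 at 1 µM, and 3 to 4 and 1 to 3 with 1 vial left out. With the vial as replicate block the number called at 0.1 µM after 6 weeks was 3. The block ended the call of INHBA and made one of INHBB between the times at 0.1 µM, at adjusted p of 0.0583 and 0.0447 by edgeR, and changed no other call of a member. Differences of the log2 ratio of INHBA to FST near 0 changed sign: with 1 vial left out they ran from −0.117 to 0.068 at 0.1 µM and from −0.163 to 0.039 at 1 µM after 6 weeks, from −0.442 to 0.442 at 1 µM after 12 weeks, and between the times from −0.147 to 0.14 in the controls and from −0.337 to 0.305 at 1 µM. With CPM in place of TPM the difference at 1 µM after 12 weeks was −0.041. The causes were not tested. The block and the removal of single vials rely on the vial numbers, and at 1 µM after 12 weeks same-vial libraries did not deviate together. BMP2 after 12 weeks and BMP6 were limited by their low counts.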

Other observations

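Among 64 sets of 4 libraries (8 tested members in 8 groups), 0 held a library whose gap to the other 3 passed the critical value of Dixon's ratio, while 1 in 20 would give about 3.2.

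After 12 weeks the vials that were high differed between groups. INHBA was higher in vials 3 and 4 of the control, at 19.8 and 16.3 CPM, than in vials 1 and 2, at 10.4 and 9.38 CPM. At 1 µM it was higher in vials 1 and 2, at 21.6 and 17.7 CPM, than in vials 3 and 4, at 10.81 and 10.99 CPM. GREM1 had the same order, with 46.7 and 44.9 CPM in vials 3 and 4 and 32.4 and 29.0 CPM in vials 1 and 2 of the control. At 1 µM GREM1 had 40.5 and 36.5 CPM in vials 1 and 2 and 26.7 and 23.7 CPM in vials 3 and 4. The difference between these orders was not tested.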
